A study of Mus musculus with 6 samples.

Results

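The genes described here are 10 markers of macrophages, the phagocytes that live in nearly every tissue, measured in the cochlea of young and old mice. They were chosen by name, as 5 genes shared by macrophages (Cd68, Csf1r, Adgre1, Ptprc and Aif1), 3 genes used as markers of resident macrophages (Cx3cr1, Mrc1 and Cd163) and 2 genes used as markers of recruited monocytes and the cells they give rise to (Ccr2 and Lyz2). All 10 were among the 25419 genes of the table, and all 10 were among the 19465 genes with a mean of at least 0.1 FPKM (fragments mapped, scaled to transcript length and to library depth) that were tested.

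RNA was measured in C57BL/6 mice, an inbred strain that loses hearing with age, at 1 month (young, 3 samples) and 12 months (old, 3 samples). Each sample was a pool of 3 mice, and its RNA came from the dissected cochlear basilar membrane, the strip that carries the sensory hair cells. The labels name no treatment and no altered allele in either group. From the steps between low FPKM values, the depth was estimated at 12470000 to 15670000 fragments per sample. Since each sample is a pool of whole tissue, a lower or higher level can come from the number of cells or from the RNA in each cell, and these cannot be told apart.

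Macrophages of the cochlea lie along the basilar membrane, in the spiral ganglion and lateral wall and around blood vessels. Most tissues hold resident macrophages that were seeded before birth or renew themselves, and they take up blood monocytes, drawn by chemokines, which can then become macrophages. CSF1R, the receptor for the growth factors CSF1 and IL-34, keeps most macrophages alive. No marker of the 10 belongs to 1 state alone, and Lyz2 in particular is made by monocytes, macrophages and neutrophils alike.

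Genes that define the labelled tissue were present, with the hair cell genes Ocm, Myo6 and Otof at means of 58.4 to 135, 74.9 to 83.4 and 5.33 to 6.80 FPKM in the age groups, and the supporting cell gene Gjb6 at 643 and 669 FPKM. A pair of libraries stood apart. Young replicate 1 held the most of the 12 neutrophil markers, with a summed level of 446 FPKM against 12.6 and 30.4 FPKM in the other young samples and 16.2 to 87.6 FPKM in the old ones. It also had the highest sum of the 10 B and plasma cell markers, 5.53 FPKM against 1.06 to 2.85 FPKM in the other samples. The same held for the 8 proliferation genes, at 12.1 FPKM against 2.42 to 4.84 FPKM. Old replicate 2 held the most of the 14 monocyte genes, 93.0 FPKM in sum, against 21.9 and 35.1 FPKM in the other old samples. The young samples had 8.55 to 41.1 FPKM, with the highest sum in young replicate 1. Values with 1 or both of these libraries left out are given beside the markers, and counts beside the lists.

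Among the 10 markers, 6 were higher in old mice by limma on log2(FPKM + 0.1) at a Benjamini-Hochberg adjusted p below 0.05, and 0 were lower, against 5.65% and 3.81% of all genes tested. At an unadjusted p below 0.05, 7 were higher and 0 lower, against 14.6% of all genes higher. These 6 were all 5 genes shared by macrophages and Lyz2, while 0 of the 3 resident markers passed. The lowest old sample exceeded the highest young sample for 7 of the 10, against 17.6% of all genes, and the reverse held for 0, against 16.1%. The log2 changes, old minus young, had a median of 1.35 over the 10 genes, beside 0.0088 over all genes. Without old replicate 2, however, 1 of the 10 passed, which was Lyz2, and 46 genes of the whole table in place of 1099 were higher. The other 5 had log2 changes of 1.18 to 1.78 in its absence, with adjusted p from 0.0545 to 0.131 by limma. Leaving out young replicate 1 as well (added after values were seen) again left Lyz2, with a log2 change of 2.86 and an adjusted p of 0.00995 by limma. For the other 5 called genes that fit gave log2 changes of 1.37 to 1.75. Without young replicate 1, 2 or 3 the number of markers called was 4, 4 and 5, and without old replicate 1 or 3 it was 4 each time. Of all genes, 562, 242 and 949 were higher without young replicates 1, 2 and 3, and 290 and 262 without old replicates 1 and 3. With 1 variance prior for all genes in place of a trend on the mean, 2 markers passed, Lyz2 and Adgre1, and 284 of all genes were higher.

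**Figure D1:**
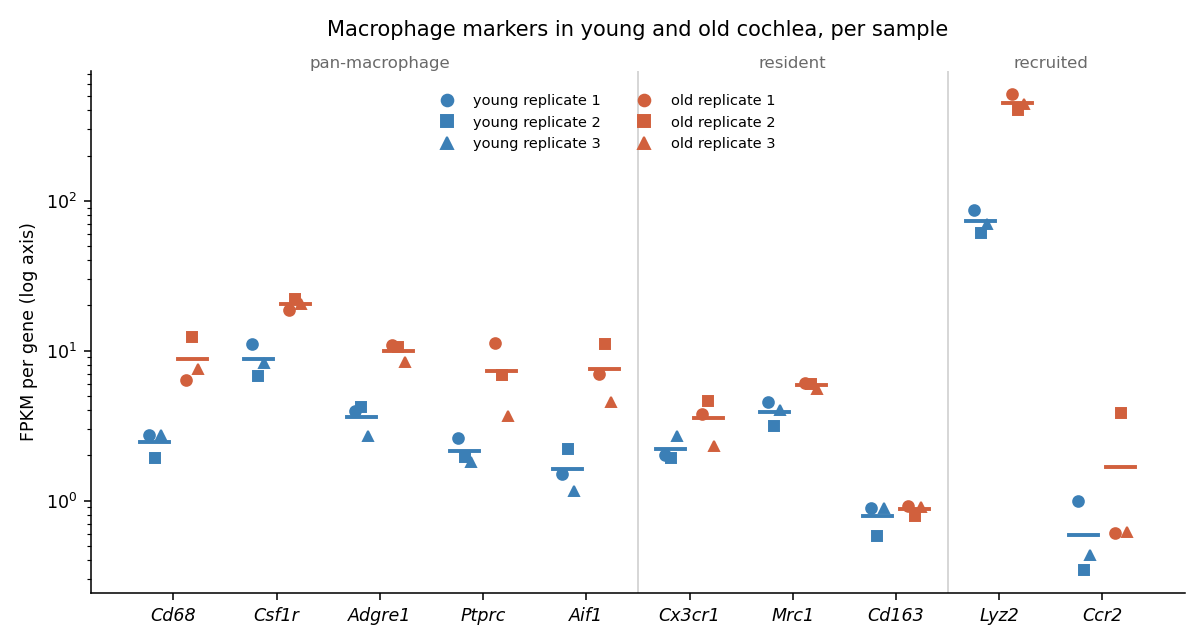
Level of each of the 10 macrophage markers in FPKM on a log axis, with 1 point per sample (3 young and 3 old) and a line at the mean of each age group. Old samples sit above all young samples for 7 genes, and Cx3cr1, Cd163 and Ccr2 overlap.

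Lyz2, which encodes the lysozyme of myeloid cells, an enzyme that cuts bacterial cell walls, had the largest difference. It stood at 86.9, 61.2 and 70.0 FPKM in young replicates 1 to 3 and at 511, 400 and 440 FPKM in old replicates 1 to 3. The lowest old sample was several times above the highest young sample. Its mean went from 72.7 ± 13.1 to 450.2 ± 56.3 FPKM (SD, n = 3 each), 6.19-fold, with a log2 change of 2.64 (SE 0.14) and an adjusted p of 0.00163 by limma. It passed under each of the 20 other settings tried, with log2 changes from 2.50 to 2.86. Lyz2 made up 73.6% of the summed FPKM of the 10 markers in young mice and 87.2% in old mice. Its near copy Lyz1 is 95.8% identical over 1264 aligned bases of the transcripts, so the split of reads between them is uncertain. As split in the table, Lyz1 stood at 0 to 0.463 FPKM in young and 0.454 to 2.46 FPKM in old samples, far below Lyz2. These values come from that same split and cannot check it.

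Of the genes shared by macrophages, Csf1r (ENSMUSG00000024621), which lies at chr18:61100598-61132149 on the plus strand by GENCODE release M21 on GRCm38, stood at 11.1, 6.78 and 8.27 FPKM in young replicates 1 to 3 and at 18.7, 22.1 and 20.5 FPKM in the old ones. The groups did not overlap, and the old samples were closer together than the young. The means were 8.73 ± 2.22 and 20.4 ± 1.72 FPKM (SD, n = 3 each), a 2.34-fold difference with a log2 change of 1.24 (SE 0.18, adjusted p = 0.0145 by limma). Csf1r missed the threshold without old replicate 2 (log2 change 1.18, adjusted p = 0.0631 by limma) or old replicate 3 (1.24, adjusted p = 0.0508). Adgre1 encodes F4/80, the surface protein by which mouse macrophages are commonly recognised. It measured 3.97, 4.20 and 2.68 FPKM in young samples and 10.8, 10.5 and 8.43 FPKM in old samples. Again every old sample lay above every young one, and the log2 change was 1.45 (SE 0.20, adjusted p = 0.0132 by limma), or 2.75-fold between the means. Without old replicate 2 it was 1.41 (adjusted p = 0.0609 by limma).

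Cd68, a glycoprotein of lysosomes that marks phagocytic cells, was at 2.72, 1.92 and 2.73 FPKM in young mice and at 6.34, 12.4 and 7.56 FPKM in old mice. Old replicate 2 was the highest, and the lowest old sample was still above all young ones. The mean was 3.57-fold higher, with a log2 change of 1.75 (SE 0.27, adjusted p = 0.0176 by limma). It missed the threshold without young replicate 2, old replicate 2 or old replicate 3, with log2 changes of 1.59, 1.48 and 1.83 and adjusted p of 0.0536, 0.0545 and 0.0511 by limma. The young values of Cd68 rest on about 25.0 to 34.0 fragments. Aif1, which encodes the actin-binding protein IBA1 used to stain microglia and macrophages, was at 1.50, 2.22 and 1.16 FPKM in the young and at 6.99, 11.0 and 4.56 FPKM in old samples. It had the widest difference of the 5 shared genes, with no overlap and a log2 change of 2.10 (SE 0.35, adjusted p = 0.0208 by limma), 4.63-fold between the means. Without young replicate 1, old replicate 1 or old replicate 2 it was 2.07, 2.11 and 1.78 with adjusted p of 0.0517, 0.0630 and 0.0680 by limma. The depth behind it was low in young mice, at about 8.01 to 17.0 fragments, against 34.0 to 97.3 in old mice, and these estimates carry counting error in addition to the spread between samples.

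Ptprc encodes CD45, the phosphatase on the surface of all leukocytes, and so counts lymphocytes as well as macrophages. It stood at 2.63, 1.94 and 1.82 FPKM in the young and at 11.3, 6.87 and 3.66 FPKM in old samples. The old samples lay above the young but were spread 52.5% (coefficient of variation) around their mean. The log2 change was 1.60 (SE 0.38, adjusted p = 0.0433 by limma), the closest to the threshold of the 6. Without each sample in turn its adjusted p ran from 0.0433 to 0.131, passing only without old replicate 3. Its log2 change was 1.75 without young replicate 1 (adjusted p = 0.0738), 1.22 without old replicate 1 (adjusted p = 0.0923) and 1.57 without old replicate 2 (adjusted p = 0.131), all by limma. In old replicate 1, 5.15 of the 11.3 FPKM were assigned to 1 transcript of 415 nt, which was at 0.194 to 0.531 FPKM in young samples and near 0 in the other old samples. With only transcripts of at least 500 nt (added after values were seen), the adjusted p of Ptprc was 0.0143 by limma.

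The 3 markers of resident macrophages showed smaller differences, with log2 changes of 0.15 to 0.63, and 0 of them passed. Mrc1, the mannose receptor CD206, which takes up glycoproteins, was at 4.55, 3.15 and 4.04 FPKM in young mice and at 6.05, 6.00 and 5.54 FPKM in old mice. The groups did not overlap and the old samples were almost equal. The log2 change of Mrc1 was 0.59, with a 95% interval from 0.20 to 0.97 and an adjusted p of 0.0663 by limma. Of 20 other settings, Mrc1 passed in 1, counting only protein-coding transcripts (adjusted p = 0.0483 by limma). Its only transcript is protein-coding, so its own values were the same there and only those of other genes differed. Without old replicate 2 its log2 change was 0.57 (adjusted p = 0.185 by limma), and without young replicate 1 it was 0.70 (adjusted p = 0.0697).

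Cx3cr1, the receptor for fractalkine that marks microglia and many resident macrophages, was at 2.02, 1.91 and 2.68 FPKM in young mice and at 3.80, 4.58 and 2.32 FPKM in old mice. Old replicate 3 lay inside the young range and the other old samples lay above it. Its log2 change was 0.63, with a 95% interval from -0.01 to 1.28 and an adjusted p of 0.187 by limma. Without old replicate 2 it was 0.43 (adjusted p = 0.442 by limma), and without young replicate 1 it was 0.58 (adjusted p = 0.317). Cd163, the scavenger receptor for the complex of haemoglobin and haptoglobin, was at 0.895, 0.578 and 0.894 FPKM in young mice and at 0.922, 0.788 and 0.908 FPKM in old mice. Its groups overlapped, and its log2 change of 0.15 had a 95% interval from -0.52 to 0.82 and an adjusted p of 0.771 by limma. Without old replicate 2 the change of Cd163 was 0.21 (adjusted p = 0.760 by limma), and without young replicate 1 it was 0.24 (adjusted p = 0.688).

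Ccr2 encodes the receptor that lets monocytes leave the bone marrow and follow CCL2. It was at 0.996, 0.347 and 0.431 FPKM in young mice and at 0.609, 3.83 and 0.613 FPKM in old mice. A single library, old replicate 2, was 6.25 times the next old sample. The other old samples lay within the young range, below young replicate 1 and above young replicates 2 and 3. The log2 change was 0.98 (SE 0.72), with a 95% interval from -0.70 to 2.65 and an adjusted p of 0.421 by limma. Without old replicate 2 it was 0.16, with an adjusted p of 0.886 by limma. Without young replicate 1 it was 1.37 (adjusted p = 0.329 by limma), and without both of these libraries it was 0.55 (adjusted p = 0.563 by limma). All 4 transcripts of Ccr2 in the table were highest in old replicate 2, at 0.425 to 1.32 FPKM. The estimated fragments of Ccr2 were 181 there against 15.0 to 40.2 in each of the other samples.

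**Figure D2:**
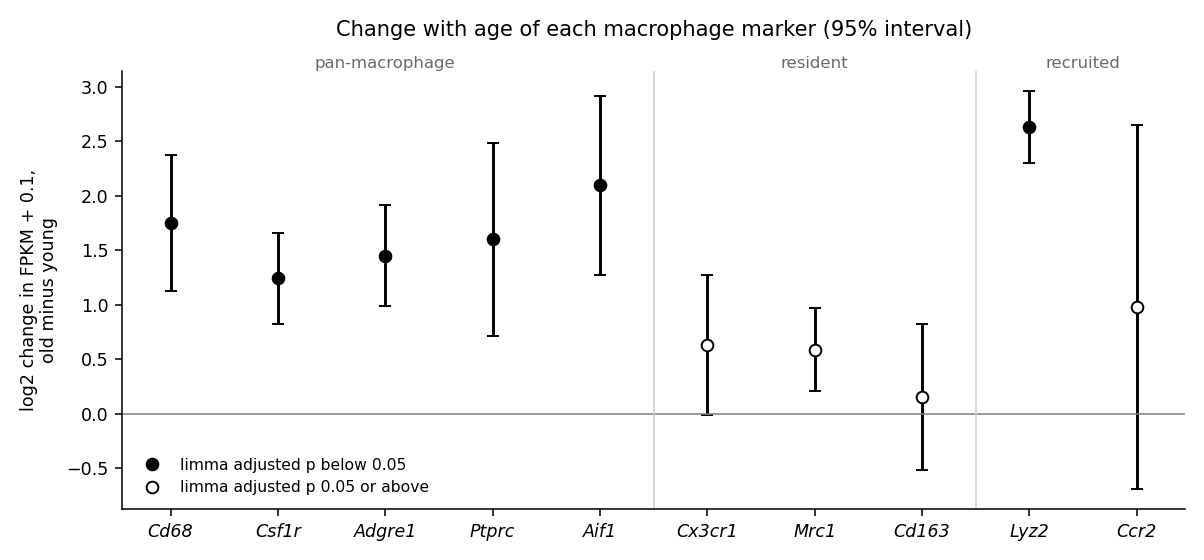
Log2 change (old minus young) of each marker on the log2(FPKM + 0.1) scale, with bars for the 95% interval of limma, not adjusted over genes, and filled points for an adjusted p below 0.05. The 6 called genes run from 1.24 for Csf1r to 2.64 for Lyz2, and the intervals of Cx3cr1, Cd163 and Ccr2 include 0.

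The exact permutation test over samples (two-sided) cannot go below 0.1 for 3 samples against 3, and it gave p = 0.1 for the 7 genes without overlap. For Cx3cr1 it gave an exact p of 0.2, and for Cd163 and Ccr2 an exact p of 0.5. No label states that replicates came from separate litters, so the p-values measure the spread between these pooled samples.

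The order of the mean levels, per length in FPKM, differed between the ages below the first places. In young mice it was Lyz2, Csf1r, Mrc1, Adgre1, Cd68, Cx3cr1, Ptprc, Aif1, Cd163 and Ccr2, and in old mice it was Lyz2, Csf1r, Adgre1, Cd68, Aif1, Ptprc, Mrc1, Cx3cr1, Ccr2 and Cd163. Among neighbours in the young order, Lyz2 from Csf1r, Csf1r from Mrc1 and Aif1 from Cd163 did not overlap between samples. Among neighbours in the old order, Lyz2 from Csf1r, Csf1r from Adgre1 and Mrc1 from Cx3cr1 did not overlap, and all other neighbours overlapped. The sum of the 9 markers other than Lyz2 was 30.4, 23.0 and 24.7 FPKM in young samples and 65.5, 78.1 and 54.1 FPKM in old samples, all above the young ones. Old replicate 1 was the highest old sample for 5 markers, old replicate 2 for the other 5 and old replicate 3 for 0. Ptprc was highest in old replicate 1 only with its transcript of 415 nt. Its main transcript was at 4.44 and 5.96 FPKM in old replicates 1 and 2, and its estimated fragments were 282 and 453.

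To see whether the markers moved in proportion, each was divided by Csf1r in the same sample, on the log2 scale. On the log2(FPKM + 0.1) scale, Lyz2 and Cd68 were higher relative to Csf1r in all old samples than in the young, and Mrc1 and Cd163 were lower relative to it in all old samples. Csf1r itself had a log2 change of 1.24, beside a median of 0.0088 over all genes. A gene with no change between the ages therefore also falls relative to Csf1r. How many of all genes did so was not counted. The log2 ratio of Lyz2 to Csf1r was 3.06 ± 0.102 in young and 4.45 ± 0.300 in old mice (SD, n = 3 each), and the exact p was 0.1, the lowest possible, or 0.225 adjusted over 9 ratios. For Cd68 the log2 ratio differed by 0.51, from -1.78 ± 0.215 to -1.27 ± 0.382. With a pseudocount of 1 in place of 0.1 the difference of Cd68 was 0.30 with an exact p of 0.5, and with the most abundant transcript of each gene it was 0.49 with an exact p of 0.2, while Lyz2, Mrc1 and Cd163 kept an exact p of 0.1 under both. Mrc1 went the other way, from -1.12 ± 0.134 to -1.78 ± 0.148, a difference of -0.66, and Cd163 from -3.31 ± 0.216 to -4.40 ± 0.226, a difference of -1.09. With the pseudocount of 0.1, Cd68, Mrc1 and Cd163 had the same exact p of 0.1, adjusted to 0.225. The other 5 ratios overlapped between the ages, with differences of 0.86 for Aif1, 0.36 for Ptprc, 0.21 for Adgre1, -0.26 for Ccr2 and -0.61 for Cx3cr1 and exact p of 0.2 to 0.8. No ratio could pass a threshold of 0.05 in this design.

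**Figure D3:**
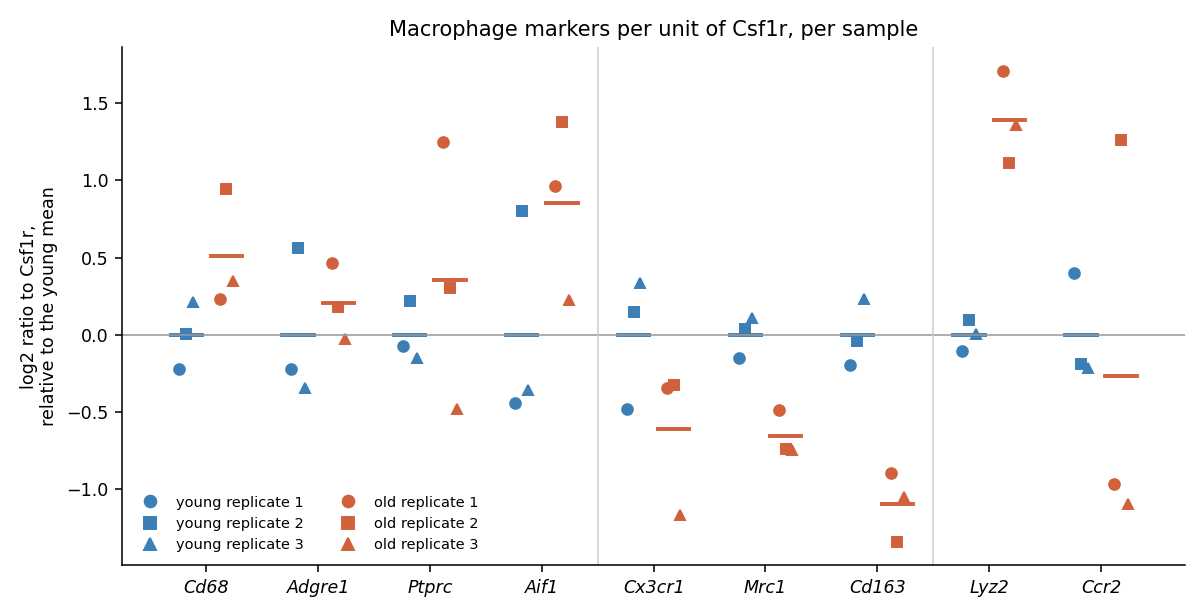
Log2 ratio of the FPKM (+ 0.1) of each other marker to that of Csf1r in the same sample, drawn relative to the mean of the young samples, with 1 point per sample and a line at each group mean. Lyz2 and Cd68 lie higher and Mrc1 and Cd163 lower in all 3 old samples than in all 3 young samples. Since Csf1r was higher in old mice, a gene with no change between the ages would lie lower too.

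Single transcripts of the markers gave fewer calls. Of 25 transcripts, all protein-coding, 20 were tested, of which 3 were higher and 0 lower with age, against 0.549% and 0.199% of the 38764 transcripts tested, and all old samples lay above all young ones for 9, against 12.6%. These 3 were the only Lyz2 transcript (ENSMUST00000092163, adjusted p = 0.00986 by limma), the main Adgre1 transcript (ENSMUST00000086763, log2 change 1.55, adjusted p = 0.0368 by limma) and the main Csf1r transcript (ENSMUST00000025523, log2 change 1.25, adjusted p = 0.0458 by limma). Among the 9 without overlap, ENSMUST00000195533 of Ptprc and ENSMUST00000171719 of Ccr2 had young means below 0.1 FPKM. They passed the filter only through the old samples, so their direction was fixed by the filter and they are no support. For Cd163, the transcript ENSMUST00000032234 of 4404 nt held 99.9% of the gene's FPKM in young mice and 49.5% in old mice. The rest in old mice lay in ENSMUST00000112541 of 4443 nt, at 0.414, 0.000176 and 0.907 FPKM in old replicates 1 to 3 against at most 0.00205 FPKM in young samples. Each of the 2 transcripts has 17 exons. Nearly all of the FPKM of Cd163 lay in the first in old replicate 2 and in the second in old replicate 3, while the gene sums there were 0.788 and 0.908 FPKM. Without old replicate 1 or 3, 0 transcripts of the markers were called, without young replicate 3, 2 were, and without any other sample, 1 was. The number of all transcripts called in these fits was not counted.

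The other 9 markers were placed by the same GENCODE release on GRCm38. Lyz2 (ENSMUSG00000069516) lies at chr10:117277331-117282321 on the minus strand, Cd68 (ENSMUSG00000018774) at chr11:69664213-69666153 on the minus strand, Adgre1 (ENSMUSG00000004730) at chr17:57358691-57483527 on the plus strand and Aif1 (ENSMUSG00000024397) at chr17:35170991-35176068 on the minus strand. Ptprc (ENSMUSG00000026395) lies at chr1:138062861-138175708 on the minus strand and Mrc1 (ENSMUSG00000026712) at chr2:14229392-14332057 on the plus strand. Cx3cr1 (ENSMUSG00000052336) at chr9:119901616-120069879 (minus strand) and Ccr2 (ENSMUSG00000049103) at chr9:124101950-124113557 (plus strand) share a chromosome, and Cd163 (ENSMUSG00000008845) lies at chr6:124304656-124330527 on the plus strand.

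Many macrophage genes are driven by PU.1, the factor encoded by Spi1, which binds sites with the core GAGGAA. RefSeq promoter windows of 300 nt (250 before and 50 after the start, GRCm38.p6) were given for 8 of the 10 markers, in 9 windows. The letters GAGGAA, searched on both strands, were in windows of 4 of the 8 (Cd68, Mrc1, Aif1 and Ptprc) and in 4 of the 9 windows, against 28.3% of 32817 windows in all. The letters TATAAA, searched on both strands, were in a window of 1 of the 8 (Ptprc), against 13.6% in all. The 2 sets of letters cannot overlap. Of the 4 markers with GAGGAA, Cd68, Aif1 and Ptprc were called higher and Mrc1 was not. Of the others with a window, Lyz2 was called and Cx3cr1, Cd163 and Ccr2 were not. A link between the motif and the calls was not tested. The bases before the annotated starts are printed in the direction of the gene for Cd68, Lyz2 and Mrc1, which show the motif 1, 0 and 3 times. They lie at chr11:69666171-69666420 (minus strand), chr10:117282322-117282522 (minus strand) and chr2:14229164-14229391 (plus strand). Capitals mark GAGGAA or its reverse complement TTCCTC.
Cd68: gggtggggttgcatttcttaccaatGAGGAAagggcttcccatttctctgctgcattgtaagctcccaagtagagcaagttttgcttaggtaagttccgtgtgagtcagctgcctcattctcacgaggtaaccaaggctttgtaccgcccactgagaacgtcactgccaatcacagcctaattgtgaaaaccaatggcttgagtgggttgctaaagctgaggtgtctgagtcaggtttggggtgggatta
Lyz2: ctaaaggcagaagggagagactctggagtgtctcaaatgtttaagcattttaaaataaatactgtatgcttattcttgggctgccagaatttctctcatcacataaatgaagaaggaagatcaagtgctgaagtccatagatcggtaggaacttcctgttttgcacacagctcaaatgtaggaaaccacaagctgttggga
Mrc1: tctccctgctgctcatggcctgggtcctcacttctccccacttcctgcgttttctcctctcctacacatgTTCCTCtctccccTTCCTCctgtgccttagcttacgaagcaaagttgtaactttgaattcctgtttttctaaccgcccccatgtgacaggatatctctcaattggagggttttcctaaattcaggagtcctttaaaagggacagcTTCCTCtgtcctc
Spi1 itself stood at 1.64, 0.578 and 0.918 FPKM in young mice and at 0.912, 2.84 and 3.57 FPKM in old mice, with overlap and a log2 change of 1.06 (adjusted p = 0.255 by limma). It is named here because of the motif.

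The ligands of the marker receptors differed among themselves. Csf1, a growth factor for macrophages, was at 3.40, 2.47 and 3.65 FPKM in young and 4.70, 6.41 and 6.36 FPKM in old samples, with no overlap and a log2 change of 0.86 (SE 0.20, adjusted p = 0.0424 by limma). Il34, the other ligand of CSF1R, was at 18.5 ± 1.15 and 17.4 ± 2.06 FPKM (SD, n = 3 each), and its log2 change of -0.10 had a 95% interval from -0.35 to 0.15. Cx3cl1, which encodes fractalkine, was at 12.5 ± 0.610 and 16.4 ± 2.68 FPKM (SD, n = 3 each), with no overlap and a log2 change of 0.39 that did not pass (adjusted p = 0.0963 by limma).

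Ccl2, the main chemokine for CCR2, was at 0.432, 0.276 and 0.461 FPKM in young and 1.38, 10.3 and 2.41 FPKM in old samples, with a log2 change of 2.81 (SE 0.67, adjusted p = 0.0429 by limma). Ccl8, whose product in mice acts mainly on another receptor, CCR8, was at 0.342 FPKM in young replicate 1 and listed at 0 in the other young samples, while old replicates 1 to 3 had 1.48, 8.65 and 2.69 FPKM (adjusted p = 0.0244 by limma). The highest value of both was in old replicate 2, the library in which Ccr2 was high, and every old sample was above every young one. Ccl12 and Ccl7 also had all old samples above the young, at 2.31, 18.3 and 3.61 and at 0.944, 4.67 and 0.725 FPKM, but did not pass (adjusted p = 0.0627 and 0.0799 by limma). In all, 3 of 7 ligand genes were higher and 0 were lower, and at an unadjusted p below 0.05, 6 were higher and 0 were lower. Without old replicate 2, 0 of the 7 passed, with log2 changes of 2.00 for Ccl2 (adjusted p = 0.0758), 3.68 for Ccl8 (adjusted p = 0.0819) and 0.78 for Csf1 (adjusted p = 0.142), all by limma. Without young replicate 1, Ccl2 and Csf1 did not pass either (adjusted p = 0.0905 and 0.0799 by limma), and Ccl8 did (adjusted p = 0.0247).

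**Figure D4:**
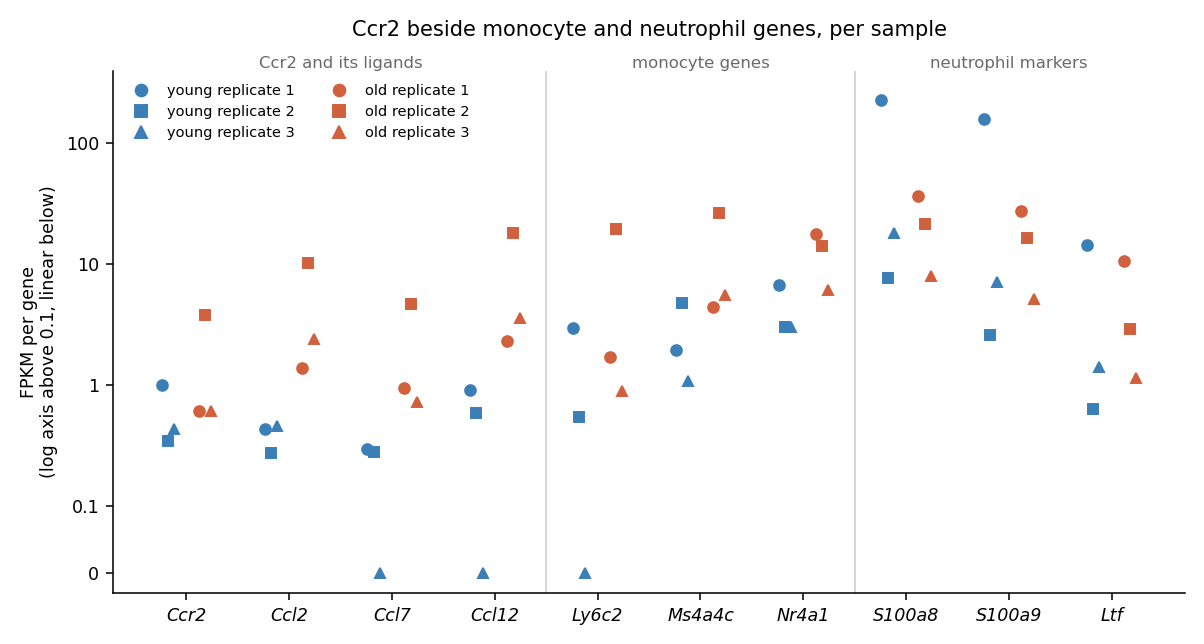
FPKM of Ccr2 and 3 of its ligands, 3 monocyte genes and 3 neutrophil markers, with 1 point per sample, on an axis that is logarithmic above 0.1 FPKM and linear below. Old replicate 2 is the highest sample for Ccr2, Ccl2, Ccl7, Ccl12, Ly6c2 and Ms4a4c, and young replicate 1 for S100a8, S100a9 and Ltf.

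Further genes of macrophages and monocytes were read from the same test. Of the 15 other macrophage genes tested, 8 had risen with age and 0 had fallen, at a median log2 change of 1.64, and at an unadjusted p below 0.05, 8 were higher and 2 lower. Tyrobp, which encodes the adaptor DAP12 of many myeloid receptors, was at 25.0, 10.7 and 14.7 FPKM in young and 51.4, 65.5 and 57.0 FPKM in old samples, with a log2 change of 1.86 (adjusted p = 0.0162 by limma). Lgmn, a lysosomal protease, was at 66.0 ± 4.43 and 73.7 ± 5.67 FPKM and the transcription factor gene Maf at 59.6 ± 4.42 and 48.1 ± 6.29 FPKM (SD, n = 3 each), and neither passed (adjusted p = 0.260 and 0.113 by limma). The other 7 that were higher, named for having passed, were Cd14, Laptm5, Ms4a7, Mpeg1, Itgam, Msr1 and Siglec1, with log2 changes of 1.64 to 2.16. Without old replicate 2, 0 of the 8 passed, with log2 changes from 1.29 for Msr1 to 1.93 for Mpeg1 and adjusted p from 0.0541 for Mpeg1 to 0.102 for Msr1, and Tyrobp had a log2 change of 1.77 (adjusted p = 0.0667 by limma). Tyrobp also missed the threshold without old replicate 3 (1.87, adjusted p = 0.0538 by limma). Of the single samples left out, Msr1 kept its call without young replicate 3 only, and without young replicate 1 its log2 change was 1.62 (adjusted p = 0.0941 by limma).

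Of 12 other tissue-resident macrophage genes tested, 0 were higher and 1 was lower, with a median log2 change of 0.27. At an unadjusted p below 0.05, 2 were higher and 2 lower. The growth factor genes Igf1 and Gas6, made by many cell types, were at 72.6 ± 11.4 and 77.0 ± 14.9 and at 56.3 ± 2.85 and 58.9 ± 2.20 FPKM (SD, n = 3 each), without a call, and Wwp1, a ubiquitin ligase, was at 27.1 ± 1.40 and 22.8 ± 0.992 FPKM (adjusted p = 0.0857 by limma). The gene that fell, named for having passed, was the chemokine gene Ccl24, at 0.821, 0.793 and 1.19 FPKM in young and 0.159, 0.126 and 0.265 FPKM in old samples, with a log2 change of -1.88 (adjusted p = 0.0288 by limma). Without young replicate 1, 2 genes of this list were higher and 0 were lower. They were Pf4, a platelet chemokine that some resident macrophages also make (log2 change 2.22, adjusted p = 0.0213 by limma), and the scavenger receptor gene Stab1 (0.83, adjusted p = 0.0444), both named for having passed there. With all samples Pf4 had a log2 change of 1.41 (adjusted p = 0.201 by limma) and Stab1 of 0.63 (adjusted p = 0.0910). Ccl24 passed in 0 of the 6 fits with 1 sample left out, with log2 changes of -2.08 to -1.71 and adjusted p of 0.0571 to 0.0962 by limma.

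Among 8 microglia genes, 3 were higher and 0 were lower, with a median log2 change of 0.34, and at an unadjusted p below 0.05, 4 were higher and 0 lower. Tmem119, which osteoblasts make as well, was at 21.4 ± 4.81 and 38.5 ± 4.80 FPKM (SD, n = 3 each, log2 change 0.86, adjusted p = 0.0310 by limma). Olfml3 was at 14.6 ± 1.92 and 18.5 ± 1.75 FPKM and did not pass (adjusted p = 0.120 by limma). P2ry12, the receptor by which microglia are most often told apart, was at 1.58 ± 0.376 and 2.03 ± 0.429 FPKM (adjusted p = 0.433 by limma) and is named here for that use. Of 13 monocyte genes tested, 1 was higher and 0 were lower, with a median log2 change of 0.81, and at an unadjusted p below 0.05, 3 were higher and 0 lower. The monocyte gene Ly6c2 was at 19.6 FPKM in old replicate 2 against 1.70 and 0.896 FPKM in the other old samples and 0 to 2.97 FPKM in young samples, and Ms4a4c at 26.4 against 4.43 and 5.59 FPKM in the old and 1.08 to 4.76 FPKM in the young. Nr4a1, a factor needed by Ly6C-low monocytes but induced in many cells, was at 4.27 ± 2.17 and 12.7 ± 6.00 FPKM (SD, n = 3 each; adjusted p = 0.0780 by limma). Over these lists and the ligands, 15 of 55 genes tested were higher and 1 was lower, and without old replicate 2, 1 was higher and 0 were lower. The number higher was 13, 6 and 15 without young replicates 1, 2 and 3, and 7 and 5 without old replicates 1 and 3, with 0 lower each time. Tmem119 passed only with all samples or without young replicate 3.

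**Figure D5:**
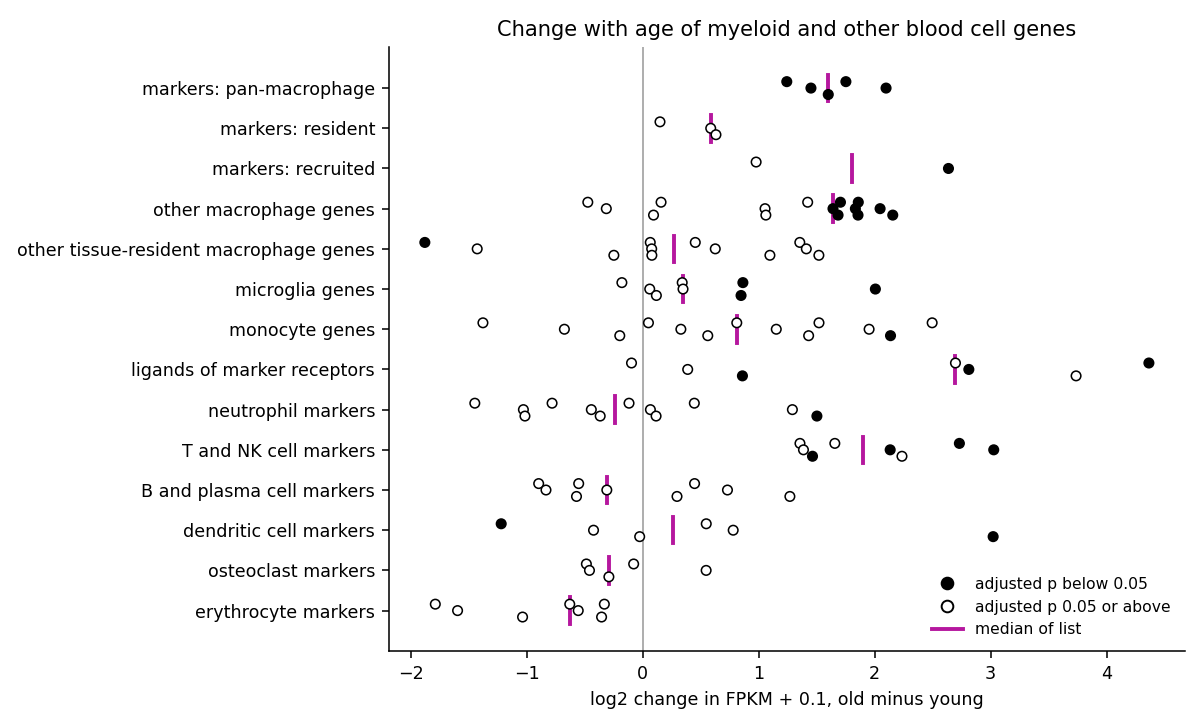
Log2 change (old minus young, log2(FPKM + 0.1)) of the tested genes of the marker groups and of lists of myeloid and other blood cell genes, with 1 point per gene, filled for an adjusted p below 0.05, and a bar at the median. The shared macrophage markers and the other macrophage genes have medians of 1.60 and 1.64, and the resident markers a median of 0.59.

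Several markers are shared with other blood cells, so the levels of those cells are given beside them. Neutrophils make Lyz2. Of their defining genes, S100a8 was at 228, 7.71 and 18.2 FPKM in young and 36.4, 21.6 and 7.97 FPKM in old samples, and S100a9 and Ltf were highest in the same young sample, at 159 and 14.4 FPKM. Their log2 changes were -0.78 for S100a8, -0.12 for S100a9 and 0.45 for Ltf with all samples, and 0.64, 1.60 and 1.71 without young replicate 1, where 0 of the 3 passed (adjusted p = 0.581, 0.232 and 0.273 by limma). Their part in the difference of Lyz2 was not tested. Of 12 neutrophil markers 1 was higher (Csf3r, named for having passed) and 0 were lower, also at an unadjusted p below 0.05, and the sum was 12.6 to 446 FPKM in young and 16.2 to 87.6 FPKM in old samples. Csf3r, the receptor for the growth factor G-CSF, kept its call without young replicate 3 and lost it without any other single sample, with log2 changes of 1.40 to 1.67 and adjusted p of 0.0540 to 0.110 by limma. Ptprc is shared with lymphocytes, and of 8 T and NK cell markers tested 4 were higher and 0 were lower (8 and 0 at an unadjusted p below 0.05). Their sum ranged from 1.87 to 3.18 FPKM in young and from 11.0 to 11.3 FPKM in old samples, led by Cd2 (1.38 to 3.94 FPKM in mean), Cd4 (0.630 to 2.90) and Nkg7 (0.133 to 1.05). Cd3d, which T cells need for their receptor, was listed at 0 in all young samples, and 2 of the 12 genes of that list were at 0 in all 6 samples. Cd3d, Cd3e, Cd3g and Cd8a, named for this, had young means below 0.1 FPKM and passed the filter only through the old samples. For these the direction was fixed by the filter, so the counts of T and NK cell markers are no support by themselves. The part of T and NK cells in the difference of Ptprc was not tested. Of 9 B and plasma cell markers 0 were higher and 0 lower, also at an unadjusted p below 0.05, with Mzb1, Cd79b and Cr2 at group means of 0.222 to 0.685 FPKM.

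Of 6 dendritic cell markers, 1 was higher (Itgax, 0.103 to 1.49 FPKM in mean, an integrin that macrophages can carry) and 1 was lower (Flt3, 4.97 to 2.01 FPKM in mean), while Zbtb46 went from 5.06 to 3.79 FPKM in mean without a call, and at an unadjusted p below 0.05, 1 was higher and 2 lower. Flt3 kept its call without young replicate 3 only, with adjusted p of 0.0738 to 0.123 by limma without any other single sample, and Itgax lost its call without old replicate 2 or 3 (adjusted p = 0.0681 and 0.0506). Osteoclasts also carry Csf1r, and of 5 of their markers tested 0 were called and 0 had an unadjusted p below 0.05, with Ctsk at 21.1 and 17.1, Nfatc1 at 3.66 and 3.46 and Acp5 at 2.86 and 1.90 FPKM in mean in young and old mice. Mast cell genes (Kit 14.3 and 12.3, Hdc 3.21 and 1.59 FPKM in mean, with Cma1 too low to test) had 0 calls of 2 tested, and 0 higher and 1 lower at an unadjusted p below 0.05. The haemoglobin genes Hbb-bs, Hba-a2 and Hba-a1, which red blood cells carry, were at 1325.5, 438 and 398 FPKM in young and 1032, 243 and 259 FPKM in old mice in mean. Of 7 erythrocyte markers tested 0 were called, with 0 higher and 1 lower at an unadjusted p below 0.05.

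Of the cochlear cells, 0 of 9 hair cell markers were higher and 3 were lower, and 0 of 10 neuron and Schwann cell markers were higher and 7 were lower, with Snap25 at 328 and 138 and Mbp at 246 and 192 FPKM in mean. At an unadjusted p below 0.05, 7 of the hair cell markers and 9 of the neuron and Schwann cell markers were lower and 0 of either were higher. Of 10 supporting cell markers, among them Gjb2 (361 and 431 FPKM in mean) and Epyc (358 and 403), 1 was higher and 0 were lower, and at an unadjusted p below 0.05, 2 were higher and 1 lower. Of 10 endothelial markers 0 were called, with 0 higher and 3 lower at an unadjusted p below 0.05, and Emcn, Egfl7 and Cldn5 were at 68.3 and 76.0, 44.4 and 33.1, and 45.4 and 22.5 FPKM in mean. Of 7 proliferation genes 0 were called, also at an unadjusted p below 0.05, with Ccna2, Cdk1 and Birc5 at group means of 0.710 to 1.41 FPKM. Over the lists of other blood and cochlear cells, 7 genes were higher and 11 lower. Leaving out young replicate 1 gave 4 and 2, young replicate 2 gave 3 and 4, and young replicate 3 gave 6 and 14. Leaving out old replicate 1 or 3 gave 2 and 1, and old replicate 2 gave 0 and 0. How the makeup of the tissue bears on the marker levels was not tested.

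Genes with profiles most like those of a pair of markers were listed as a description, by Pearson's r over the 6 samples on log2(FPKM + 0.1) among genes with a mean of at least 1 FPKM. The points share the libraries and the 2 ages, so that any gene with an even difference between ages ranks high. For Csf1r they were Tyrobp (r = 0.999), Lmod1, Rpl12 and C1qa (r = 0.996 each) and Fau (r = 0.995). C1qa, a chain of complement C1q made by macrophages, was at 36.9, 19.8 and 24.6 FPKM in young and 93.0, 118 and 90.8 FPKM in old samples. For Lyz2 they were Cd5l and Rpl27 (r = 0.998 each), Zfp110 and Apoe (r = 0.997 each) and Tmem252 (r = 0.996). Cd5l, a scavenger protein secreted by macrophages, was at 0.0430 FPKM in young replicate 1 and listed at 0 in the other young samples, while old replicates 1 to 3 had 2.60, 1.56 and 2.16 FPKM. Cd5l reached the mean of 1 FPKM only through the old samples. Its direction was thus fixed by that filter, and its place in the list is no support by itself. The ribosomal protein genes Rpl12, Rpl27 and Fau differed far less in size, with Rpl27 at 564 to 588 FPKM in young and 667 to 691 FPKM in old samples.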

How the data were processed

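RNA of cochlear basilar membranes from 3 young and 3 old samples, each a pool of 3 mice, was sequenced from directional libraries. The deposited table holds 1 FPKM value per transcript and sample, which the authors computed with Cufflinks and Cuffdiff from reads aligned to GRCm38, and the submitters' processing notes name CASAVA 1.8, TopHat2 2.0.9, Cufflinks 2.1.1 and Cuffdiff 2.1.1. The annotation release is not given in the sources used here. FPKM corrects for length and depth, but a shift of 1 abundant gene moves all others, and reads shared by transcripts are divided by a model. Samples were grouped by their age labels.

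Of 55679 Ensembl transcripts, 404 were not found in GENCODE release M21 and were left out of the gene values. Values of the transcripts of a gene were summed, and genes with a mean of at least 0.1 FPKM were compared with limma 3.58.1 (lmFit and eBayes with trend, R 4.3.3) on log2(FPKM + 0.1). Old was compared with young by a two-sided test with age as the only term, with Benjamini-Hochberg adjustment over all 19465 genes and a threshold of 0.05. Differences on this scale understate the change of low genes. Cuffdiff, the test of the study, needs reads and was not used here. The code was tested on simulated data. Fragments were estimated from the steps of low FPKM values, of which 92.3 to 94.1% lay within 0.1 of a whole number against 20% by chance, after lengths were reduced by 280 to 300 nt, and cover counting error only.

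The markers and all lists were chosen with earlier results of these data known. Named genes are the 10 markers, all ligands, and in each other list the 3 genes with the highest mean, and the 5 genes most like Csf1r and Lyz2. Others are said to be named for their values or use. The values of 2 genes of the lists are not reported here. Same-numbered young and old samples deviated from their group means with correlations of 0.035, -0.094 and 0.041 over 14985 genes, so that the numbers do not pair the samples. Python 3.11.15, numpy 2.4.6, pandas 2.3.3, Biopython 1.88 and matplotlib 3.10.9 were used for tables, alignments and plots.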

Additional observations from a re-analysis of the deposited data

How the results depend on the processing

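The 10 markers were tested again under other pseudocounts, filters, scalings, variance models, transcript sets, a replicate block and with samples left out, in 199 log2 changes in all, of which 171 kept direction and side of the threshold, 25 lost their call, 1 gained a call and 2 changed sign. Both that changed sign were of Cd163, at -1.20 with the most abundant transcript of each gene and -0.035 without young replicate 2 (-0.035 to 0.24 with 1 sample left out), and neither value passed.

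The number of markers higher in old mice, 6, was 2 with eBayes without trend, 1 without young replicate 1 and old replicate 2 together, and 1 to 5 with 1 sample left out. With eBayes without trend, 284 genes of the whole table were higher and 126 lower (1099 and 741 with trend), of further macrophage and monocyte genes 4 were higher (15 with trend), of other cell types 4 were higher and 2 lower (7 and 11), and of marker transcripts 1 was higher (3). With both samples left out these counts were 54 and 7 for all genes, 2 higher and 0 lower for macrophage and monocyte genes, 0 and 0 for other cell types and 0 for marker transcripts. At an unadjusted p below 0.05 they were 2849 and 2554, 23 and 4, 12 and 24, and 8.

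The replicate block gave 440 genes higher and 290 lower, 0 macrophage and monocyte genes lower, 3 genes of other cell types higher and 1 marker transcript, and left 6 markers higher, and since the numbers do not pair the samples it says nothing on effect size. Without a filter, 398 genes and 6 genes of other cell types were lower and 1 marker transcript was higher. With a mean of at least 1 FPKM, 0 macrophage and monocyte genes were lower and 3 genes of other cell types higher, and with the most abundant transcript these were 0 and 4. At the filter of 1 FPKM, Ccl24, the macrophage gene called lower (mean 0.559 FPKM over all samples), was no longer tested. Nor were Csf3r, Cd3g, Nkg7 and Itgax, genes of other cell types called higher in the main test. The cause of the other shifts was not tested.

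With 1 sample left out, all genes higher ran from 46 to 949 and lower from 16 to 822, macrophage and monocyte genes from 1 to 15 and 0 to 0, other cell types from 0 to 6 and 0 to 14, and marker transcripts from 0 to 2. The differences in log2 ratio to Csf1r then ran from 1.24 to 1.53 for Lyz2, 0.29 to 0.65 for Cd68, 0.60 to 1.26 for Aif1, -0.088 to 0.78 for Ptprc, 0.037 to 0.49 for Adgre1, -0.85 to -0.33 for Cx3cr1, -0.74 to -0.60 for Mrc1, -1.19 to -0.97 for Cd163 and -1.03 to 0.15 for Ccr2. The sign turned for Ptprc without old replicate 1 (-0.088) and for Ccr2 without old replicate 1 (0.086) or 3 (0.15). Under quantile normalization the median log2 change of all genes was -0.021, and that of the markers stayed 1.35. Cd163 fell below the filter at a mean of 1 FPKM, so no value was had there.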
